A study of Mus musculus with 14 samples.

Results

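The genes described here are 10 genes of blood vessel growth: Apln, Aplnr, Esm1, Vegfa, Kdr, Flt1, Pgf, Angpt2, Tek and Dll4. They were taken by symbol from a table of counts for 54532 genes, and all 10 were among the 16034 genes with enough counts to be tested. The table came from bulk RNA sequencing of cardiac tissue from 14 wild-type male C57BL/6J mice, with 1 library per mouse. Irradiated mice were given 30 Gy of 60Co γ-rays once, at 8 weeks of age, over the anterior chest, with the other regions shielded by lead. Hearts were collected after 1 day from 3 control mice (Control_1d) and 3 irradiated mice (IRR_1d), and after 6 weeks from 4 control mice (Control_6w) and 4 irradiated mice (IRR_6w). The control groups received no dose, and no group carried a transgene or a mutation. Since whole tissue was measured, fewer cells of a type and less RNA per cell cannot be told apart.

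New capillaries grow from sprouts that are led by a tip cell and lengthened by the stalk cells behind it. VEGF-A, encoded by Vegfa, binds the receptors VEGFR2 (Kdr) and VEGFR1 (Flt1) on endothelial cells. VEGFR2 carries most of the growth signal, whereas VEGFR1 binds the ligand tightly and signals weakly, and PlGF (Pgf) is a ligand of VEGFR1. Tip cells are known for high Esm1, Apln and Angpt2, and they present the Notch ligand Dll4 to their neighbours. Apelin (Apln) is a secreted peptide whose receptor is Aplnr, and angiopoietin-2 (Angpt2) is a ligand of the receptor Tie2 (Tek) that can oppose angiopoietin-1.

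The promoter sequences of Apln and Esm1 are shown because these were the members with the largest differences at 6 weeks. Of the 10 members, 8 had an entry in the RefSeq promoter table (build GRCm38.p6), and Aplnr and Angpt2 had none. The sequences are the 250 bases before the annotated start, 5′ to 3′ on the strand of the gene, for Apln at chrX:48034854-48035103 on the minus strand and for Esm1 at chr13:113209409-113209658 on the plus strand. Capitals mark matches, on either strand, to ACGTG or GCGTG, the core letters bound by hypoxia-inducible factors, or to TGGGAA, the core letters bound by the Notch effector RBPJ.
Apln: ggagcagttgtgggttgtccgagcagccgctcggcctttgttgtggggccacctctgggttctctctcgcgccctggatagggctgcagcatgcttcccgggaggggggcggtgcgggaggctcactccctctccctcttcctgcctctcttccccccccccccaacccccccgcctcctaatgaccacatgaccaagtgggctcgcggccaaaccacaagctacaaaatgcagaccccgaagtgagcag
Esm1: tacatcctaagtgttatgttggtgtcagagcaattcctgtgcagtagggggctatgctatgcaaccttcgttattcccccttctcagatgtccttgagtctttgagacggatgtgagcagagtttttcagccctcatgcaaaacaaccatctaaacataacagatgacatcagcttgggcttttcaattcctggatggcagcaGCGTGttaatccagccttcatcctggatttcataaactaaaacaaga
Esm1 held 1 match, a GCGTG from 47 to 43 bases before the start, and Apln held none. Among 32851 promoter windows of the same length, 38.6% held a hypoxia core and 21.6% an RBPJ core, so that a single match was common. GC content was 65.2% for Apln and 44.0% for Esm1.

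All genes are given by the coordinates of the count table on mm10. Apln (ENSMUSG00000037010) lies at chrX:48025146-48034853, Esm1 (ENSMUSG00000042379) at chr13:113209659-113218098 and Angpt2 (ENSMUSG00000031465) at chr8:18690263-18741562. Exonic bases were shared with another annotated gene only in Dll4 (chr2:119325784-119335962), where 5.56% overlapped Gm14207 on the opposite strand, and strandedness of the counting was not given in the sources used here. The other loci were chr2:85136225-85139923 for Aplnr, chr17:46016993-46032369 for Vegfa, chr5:75932827-75978458 for Kdr, chr5:147561604-147726011 for Flt1, chr12:85166635-85177790 for Pgf and chr4:94739289-94874976 for Tek.

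Total counts per library ran from 13336746 to 16837265, and levels below are TMM-scaled CPM, which relate the counts to library size. Libraries stood apart in ways that touch the members. In Control_6w replicate 3 the 10 thymus genes summed to 4944 CPM, led by Tcf7 (1214), Rag1 (1128) and Cd8a (710), and the summed cardiomyocyte and endothelial markers were the lowest of the series (4003 and 634 CPM). The same library held 830.5 CPM of brown fat, 363 CPM of white fat and 334 CPM of atrial genes. IRR_6w replicate 1 held 2822 CPM of atrial genes, led by Myl4 (1089), Nppa (713) and Myl7 (644), only 5.70 CPM of the ventricular gene Myl2, 899 CPM of white fat genes, led by Plin1 (458), Adipoq (331) and Retn (95.2), and 447 CPM of lung epithelial genes, led by Scgb1a1 (345) and Scgb3a2 (65.5). Hopx, the next gene of the lung list, was at 24.6 CPM there and at 18.2 to 139 CPM in the other libraries. IRR_6w replicate 1 also held 1087 CPM of brown fat genes, which summed to 16.9 to 483 CPM outside this library and Control_6w replicate 3. IRR_1d replicate 3 held 1168 CPM of atrial genes, led by Myl4 (508), Myl7 (281) and Nppa (234), and 305 CPM of white fat genes, led by Plin1 (181), Adipoq (109) and Retn (8.92). Control_1d replicate 2 held 536 CPM of atrial genes and was kept in all sets of libraries but its own leave-one-out fit. In Control_6w replicates 1 to 3 the 7 testis germ cell genes summed to 44.0, 31.1 and 20.2 CPM, against at most 0.301 CPM in the other libraries, with Mael at up to 19.9 CPM, and their part in the results was not tested. Of genes that averaged 2 to 5 CPM in the other libraries, 39.7% had 0 counts in Control_1d replicate 1, 30.2% in IRR_6w replicate 3 and 14.8% in IRR_6w replicate 4, against 0.108 to 8.15% in the remaining libraries. Calls at 6 weeks are therefore given with and without Control_6w replicate 3, IRR_6w replicate 1 and IRR_1d replicate 3 (RNA of other tissues), and with and without Control_1d replicate 1 and IRR_6w replicates 3 and 4 (most low genes at 0 counts).

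At 6 weeks, 3 of the 10 members rose in IRR_6w vs. Control_6w: Apln, Esm1 and Angpt2. Dll4, the other member named above as a tip cell gene, was not called and had a log2 fold change of -0.65. A gene was called when its fold change was above 2 or below 0.5 and its Benjamini-Hochberg adjusted p over all tested genes was under 0.05 by the quasi-likelihood test of edgeR. Of all tested genes, 0.256% were called in this comparison. The members were chosen with earlier results of these data known. Shares of all genes are therefore given for scale and do not test the members as a set. With DESeq2 the same 3 members were called (2.06% of all genes), and with limma 2 of them, Apln and Angpt2 (0.374% of all genes). With edgeR on the 2 groups alone 0 members and 13 of 14610 genes were called, and the adjusted p was 0.0758 for Apln, 0.137 for Esm1 and 0.0758 for Angpt2. At an unadjusted p with the same fold limits the count was 5 of 10, with Flt1 lower and Pgf higher besides, against 5.43% of all genes. In 3 members every IRR_6w library was above every Control_6w library, against 4.08% of all genes, and in 0 members was every IRR_6w library below, against 1.64%. With CPM from library totals in place of TMM, Pgf joined these 3 and made 4, against 6.63% of all genes. The median log2 fold change of the 10 members was 0.04, and that of all tested genes was -0.09. Each p-value measures the spread between individual mice.

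**Figure D1:**
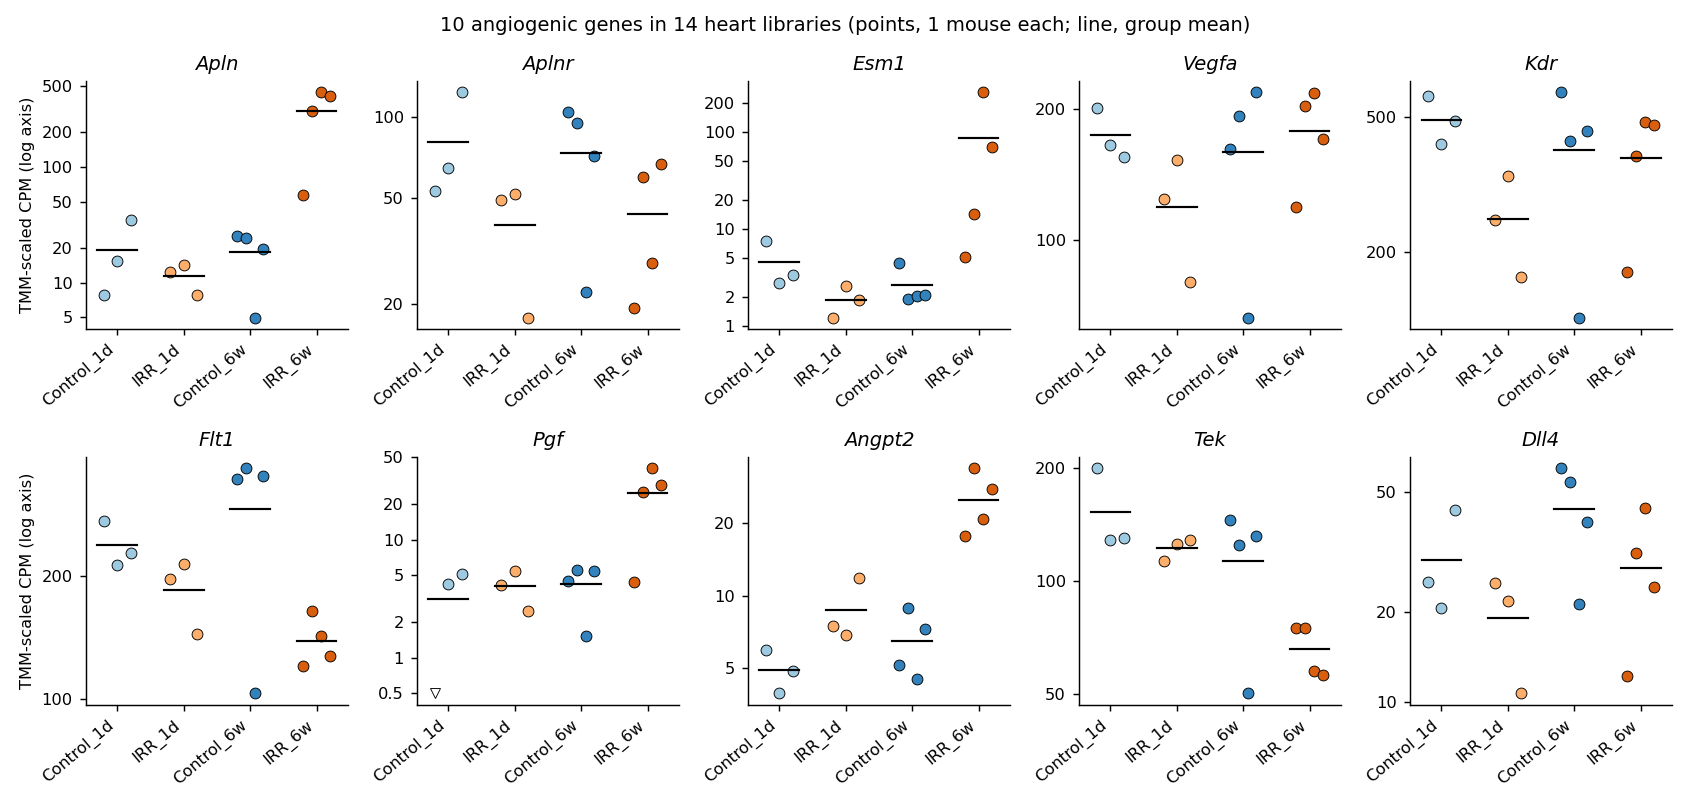
Levels of the 10 members in each library, in TMM-scaled CPM on a log axis, by group. Each point is 1 mouse, the line is the group mean, and the open triangle is Pgf at 0 counts in Control_1d replicate 1, drawn at 0.5 CPM. Apln, Esm1 and Angpt2 were higher in all 4 IRR_6w mice than in any Control_6w mouse.

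Apln showed the member difference with the smallest p at 6 weeks. Its level was 25.4, 24.3, 4.96 and 19.4 CPM in Control_6w replicates 1 to 4 and 57.4, 303, 444 and 414 CPM in IRR_6w replicates 1 to 4. The groups did not overlap, and within IRR_6w replicate 1, the library with atrial and fat RNA, stood well below the other 3. The log2 fold change was 4.04 (SE 0.675, n = 4 and 4, adjusted p = 0.0252), which is 16.5-fold, and Apln ranked 19th of all tested genes by p. Leaving out 1 library at a time kept the call in 8 of 14 fits, with log2 fold changes of 3.73 to 4.39, and the 6 fits that lost it (adjusted p 0.0562 to 0.126) each lacked a 6-week mouse, namely any of Control_6w replicates 1, 2 and 4 and of IRR_6w replicates 2 to 4. Without the 3 libraries with RNA of other tissues Apln was called at 4.07 (adjusted p = 0.00184), and without the 3 libraries with most low genes at 0 counts it was 3.29 (adjusted p = 0.248).

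Aplnr, the receptor of apelin, was not called. Its level ran from 22.2 to 105 CPM in Control_6w (mean 73.6 ± 37.0, SD, n = 4) and from 19.4 to 66.8 CPM in IRR_6w (43.6 ± 23.2, n = 4), with a log2 fold change of -0.75 (SE 0.512, adjusted p = 0.731). The groups overlapped. The count ratio of Apln to Aplnr within a library does not depend on scaling. It was 0.224 to 0.270 in Control_6w, 0.146 to 0.278 in Control_1d and 0.251 to 0.439 in IRR_1d, and it was 2.96, 5.07, 15.7 and 6.2 in the 4 IRR_6w mice. The narrow range in Control_6w included replicate 3, in which both genes were low. Apela, the other ligand of Aplnr, was at 0 to 0.264 CPM in all libraries and was not tested.

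Esm1, which encodes the secreted proteoglycan endocan, had the largest fold change and the widest spread. It was at 4.49, 1.91, 2.05 and 2.09 CPM in Control_6w replicates 1 to 4 and at 5.18, 14.5, 259 and 70.7 CPM in IRR_6w replicates 1 to 4. These IRR_6w values rest on 90, 240, 4065 and 1488 counts, and the lowest of them was close to the highest control, which had 59 counts. The log2 fold change was 5.05 (SE 0.974, n = 4 and 4, adjusted p = 0.04998), at the edge of the threshold, and the fold was 33.1. The call was kept on leaving out Control_1d replicate 1, IRR_6w replicate 1 or IRR_6w replicate 2 and was lost on leaving out any of the other 11 libraries (adjusted p 0.0549 to 0.209), and without IRR_6w replicate 3 the log2 fold change was 3.51. IRR_6w replicates 3 and 4, which held the highest levels, were also 2 of the 3 libraries with most low genes at 0 counts. Without those 3 the log2 fold change was 1.90 (adjusted p = 0.420), and without the 3 libraries with RNA of other tissues it was 5.34 (adjusted p = 0.0173). The part of the low genes at 0 counts in the result was not tested.

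Among the VEGF ligands, Vegfa, the main ligand of VEGFR2, was at 66.1 to 219 CPM in Control_6w (160 ± 66.6, SD, n = 4) and 119 to 218 CPM in IRR_6w (178 ± 43.9, n = 4), with a log2 fold change of 0.15 (SE 0.337, adjusted p = 0.928). Control_6w replicate 3 was the lowest library, and without it the log2 fold change was -0.10. Pgf was at 4.49, 5.51, 1.54 and 5.46 CPM in Control_6w and 4.43, 25.4, 40.7 and 29.0 CPM in IRR_6w. Thus 3 IRR_6w mice were above every control, and replicate 1 lay within the control range. The log2 fold change of Pgf was 2.55 (SE 0.924, unadjusted p = 0.0150, adjusted p = 0.382), and it was 2.90 without IRR_6w replicate 1 (adjusted p = 0.233). The count ratio of Pgf to Vegfa was 0.0233 to 0.0286 in Control_6w and 0.0373, 0.125, 0.187 and 0.170 in the IRR_6w mice, so that by this ratio the groups did not overlap. In IRR_1d the ratio was 0.0315 to 0.0359, just below the value of IRR_6w replicate 1.

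Neither VEGF receptor was called with all libraries in the fit. Flt1 was at 345, 367, 103 and 351 CPM in Control_6w and at 120, 164, 143 and 127 CPM in IRR_6w. All controls but replicate 3, the library with thymus RNA, were above every irradiated mouse. The log2 fold change was -1.07 (SE 0.330, unadjusted p = 0.00563, adjusted p = 0.244). Without Control_6w replicate 3 it was -1.35 and past the call limits (adjusted p = 0.0268), as it was without the 3 libraries with RNA of other tissues (-1.29, adjusted p = 0.00875). Flt1 was not called in the other 13 of 14 leave-one-out fits (edgeR adjusted p 0.243 to 0.580). Without the 3 libraries with most low genes at 0 counts no gene at all was called. Kdr was at 129 to 589 CPM in Control_6w (399 ± 194, SD, n = 4) and 176 to 482 CPM in IRR_6w (378 ± 142, n = 4), a log2 fold change of -0.08 (SE 0.416, adjusted p = 0.973) whose sign turned under several alternatives. Per Kdr count, Flt1 was 0.585, 0.865, 0.803 and 0.776 in Control_6w and 0.685, 0.427, 0.297 and 0.271 in IRR_6w, where only replicate 1 lay within the control range.

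Of the angiopoietin pair, the ligand rose and the receptor was not called. Angpt2 was at 5.18, 8.88, 4.50 and 7.28 CPM in Control_6w and 17.7, 34.0, 20.8 and 27.7 CPM in IRR_6w, with every irradiated mouse above every control. The log2 fold change was 1.96 (SE 0.346, n = 4 and 4, adjusted p = 0.0400), a fold of 3.88. The call held without Control_1d replicate 1, IRR_1d replicate 3 or IRR_6w replicate 1 and was lost without any of the other 11 libraries (adjusted p 0.0547 to 0.149), while the log2 fold change stayed between 1.77 and 2.13. It was 1.95 without the 3 libraries with RNA of other tissues (adjusted p = 0.0210) and 2.002 without the 3 with most low genes at 0 counts (adjusted p = 0.231). IRR_6w replicate 1 was again the lowest of its group, here close to replicate 3.

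Tek, the receptor of the angiopoietins, was at 146, 125, 50.3 and 132 CPM in Control_6w and 74.9, 75.1, 57.9 and 56.2 CPM in IRR_6w. As for Flt1, Control_6w replicate 3 lay below every irradiated mouse and the other 3 controls lay above them. The log2 fold change was -0.78 (SE 0.295, unadjusted p = 0.0191, adjusted p = 0.417), and without the 3 libraries with RNA of other tissues Tek was called at -1.09 (adjusted p = 0.0403). Tek was called in 0 of 14 leave-one-out fits (edgeR adjusted p 0.0640 to 0.742). The count ratio of Angpt2 to Tek was 0.0355, 0.0709, 0.0895 and 0.0553 in Control_6w and 0.236, 0.452, 0.359 and 0.494 in IRR_6w, with no overlap.

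Dll4, the tip cell ligand of Notch, was at 21.1 to 59.8 CPM in Control_6w (43.6 ± 17.2, SD, n = 4) and 12.2 to 44.0 CPM in IRR_6w (27.9 ± 13.3, n = 4). Its log2 fold change was -0.65 (SE 0.422, adjusted p = 0.719), and the groups overlapped. Of Apln, Esm1, Angpt2 and Dll4, Dll4 alone had an estimate below 0.

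**Figure D2:**
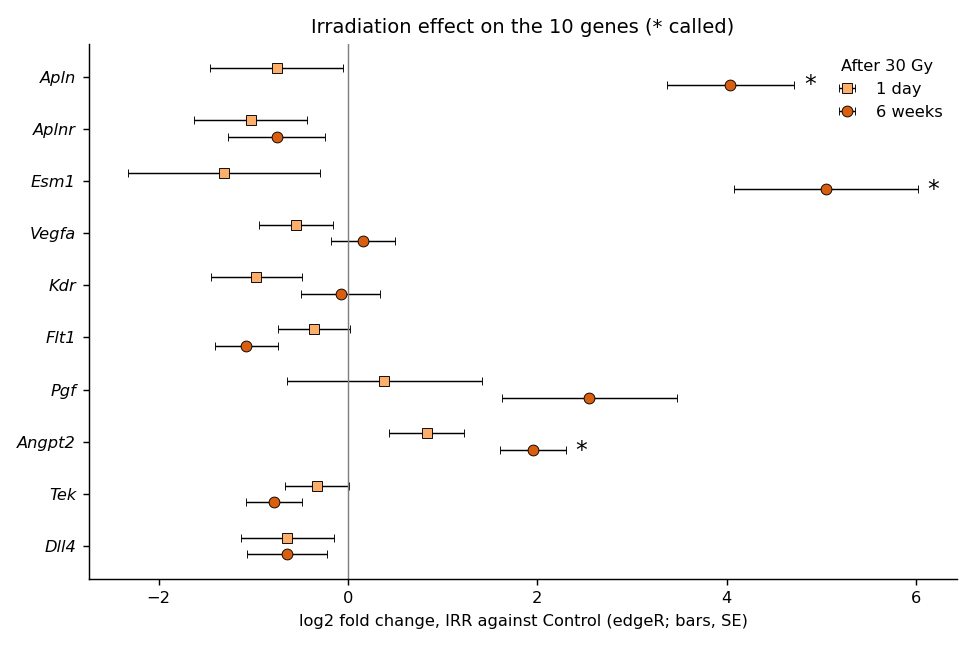
Log2 fold change (IRR against Control, edgeR) of the 10 members at 1 day (squares) and 6 weeks (circles), with bars of 1 SE and an asterisk for a called gene. Only Apln (4.04), Esm1 (5.05) and Angpt2 (1.96) at 6 weeks carry the asterisk, and Aplnr, Kdr, Flt1, Tek and Dll4 lie below 0 at both times.

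**Figure D3:**
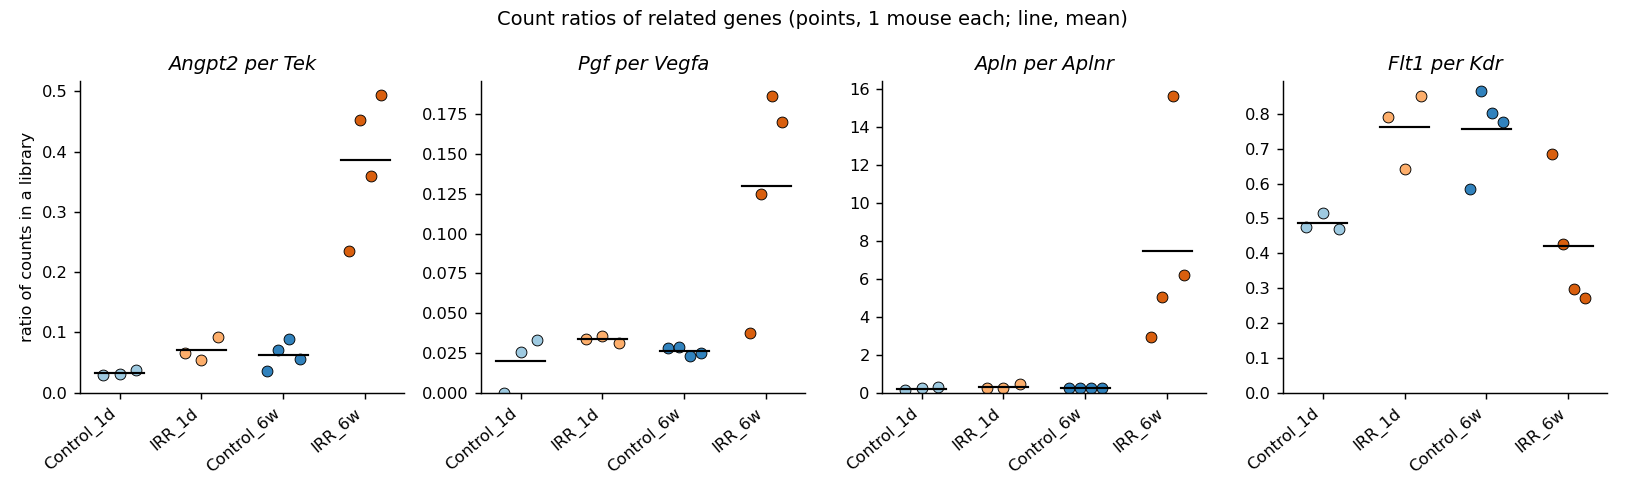
Ratio of the counts of related members within each library, by group, on linear axes from 0. Each point is 1 mouse and the line is the group mean. Angpt2 per Tek, Pgf per Vegfa and Apln per Aplnr were higher in every IRR_6w mouse than in any mouse of the other groups, while Flt1 per Kdr was below the Control_6w range in 3 of 4 IRR_6w mice. For Pgf per Vegfa the gap was small, with a lowest IRR_6w value of 0.0373 and a highest IRR_1d value of 0.0359. The share of other gene pairs without overlap was not computed.

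Levels of different members were compared per length, as FPKM from the TMM-scaled counts and the deposited gene lengths. In Control_1d the order was Kdr (54.3 ± 8.78 FPKM, SD, n = 3), Vegfa (40.6 ± 5.58), Tek (32.5 ± 8.64), Aplnr (21.8 ± 10.3), Flt1 (17.6 ± 2.28), Dll4 (7.71 ± 3.16), Apln (6.10 ± 4.38), Esm1 (2.20 ± 1.26), Angpt2 (1.33 ± 0.275) and Pgf (1.08 ± 0.948). Only Flt1 and Dll4 were neighbours in this order whose ranges did not overlap. In IRR_6w Apln was first by mean (96.8 ± 55.8 FPKM, n = 4), ahead of Kdr (41.9 ± 15.7), Esm1 (41.6 ± 56.2), Vegfa (41.5 ± 10.2), Tek (14.01 ± 2.21), Aplnr (11.8 ± 6.28), Flt1 (10.3 ± 1.44), Pgf (8.57 ± 5.21), Dll4 (7.24 ± 3.46) and Angpt2 (6.79 ± 1.98). There the ranges of all neighbours overlapped except those of Vegfa and Tek. Apln stood seventh in the order of both control groups and of IRR_1d.

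One day after irradiation none of the 10 members was called in IRR_1d vs. Control_1d by edgeR, DESeq2 or limma, and 0 passed an unadjusted p under 0.05 with the fold limits. The shares of all genes were 0.0249% with edgeR, 0.187% with DESeq2, 0.0312% with limma and 2.23% at the unadjusted p, so few genes were called at this time at all. In 4 members, Aplnr, Esm1, Vegfa and Kdr, every IRR_1d library was below every control, against 4.14% of all genes, and in 1, Angpt2, every IRR_1d library was above, against 6.52%. These counts depended on the scaling. With library totals only Aplnr and Kdr were lower without overlap (1.97% of all genes), Aplnr by 46.92 against 46.86 CPM, and 0 members were higher (7.28%). The median log2 fold change was -0.59 over the members and 0.06 over all genes. Some markers of other cells were also apart at 1 day, although none was called by edgeR. The 5 lymphatic markers summed to 143 to 180 CPM in Control_1d and 226 to 242 CPM in IRR_1d, with Lyve1, Reln and Mmrn1 higher without overlap. Of 6 macrophage markers Cd68 and Fcgr1 were higher without overlap, but Lyz2 (-0.22) and Csf1r (-0.05) were below 0 on the log2 scale. Of 6 fibroblast markers Pdgfra and Tcf21 were higher. Of 6 cardiomyocyte markers Actc1 and Ryr2 were lower, but Tnnt2 (0.16) and Tnni3 (0.10) were above 0. Of the 12 endothelial markers Sox17 was lower, but others, such as Vwf (1.28) and Eng (0.43), were above 0. Of 7 pericyte markers Higd1b was lower, but Cspg4 (1.01), Pdgfrb (0.17) and Notch3 (0.17) were above 0. The macrophage sums overlapped (528 to 782 and 550 to 655 CPM), as did the fibroblast, cardiomyocyte, endothelial and pericyte sums. The part of these markers in the member values was not tested.

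Of the receptors at 1 day, Kdr was at 414 to 572 CPM in Control_1d and 169 to 334 CPM in IRR_1d, with a log2 fold change of -0.97 (SE 0.485, n = 3 and 3, unadjusted p = 0.0655, adjusted p = 1). Aplnr was at 53.2 to 124 CPM and 17.8 to 51.7 CPM, with -1.03 (SE 0.595, adjusted p = 1). The lowest value of both genes in IRR_1d came from replicate 3, the library with atrial and fat RNA. Flt1 was at 272, 213 and 228 CPM in Control_1d and 197, 215 and 144 CPM in IRR_1d (-0.36, SE 0.377), and Tek was at 129 to 200 and 113 to 129 CPM (-0.32, SE 0.339). Both overlapped between the groups. Dll4 was at 20.5 to 43.5 and 10.7 to 24.8 CPM (-0.64, SE 0.489), again with overlap.

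Of the ligands at 1 day, Angpt2 was at 5.96, 3.93 and 4.85 CPM in Control_1d and 7.48, 6.87 and 11.9 CPM in IRR_1d, with a log2 fold change of 0.83 (SE 0.392, unadjusted p = 0.0525, adjusted p = 1). Its groups at 1 day overlapped with library totals (up to 6.57 CPM in Control_1d and from 5.56 CPM in IRR_1d) and per endothelial marker count (0.293 to 0.582 and 0.498 to 0.725 per 100 counts). Esm1 was at 7.65, 2.82 and 3.39 CPM in Control_1d and 1.22, 2.58 and 1.85 CPM in IRR_1d (-1.31, SE 1.01, adjusted p = 1), on 19 to 122 counts. The nearest values of the groups, 2.82 and 2.58 CPM, rest on 28 and 30 counts, and with library totals they were 2.05 and 2.09 CPM, so that the groups overlapped. Vegfa was at 155 to 201 and 79.8 to 153 CPM (-0.55, SE 0.390). Apln was at 7.77, 15.3 and 34.5 CPM in Control_1d and 12.3, 14.1 and 7.80 CPM in IRR_1d (-0.75, SE 0.702), and without Control_1d replicate 3 its log2 fold change was 0.01. Pgf was at 0, 4.23 and 5.16 CPM in Control_1d and 4.19, 5.49 and 2.51 CPM in IRR_1d (0.38, SE 1.03). The 0 was in replicate 1, in which 39.7% of low genes had 0 counts, and without that library the value was -0.21.

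Between the irradiated groups, IRR_6w vs. IRR_1d, which shares its IRR_6w mice with the comparison at 6 weeks, 0 members were called by edgeR (0.0374% of all genes), 3 by DESeq2 (0.911%; Apln, Esm1 and Angpt2) and 1 by limma (0.156%; Apln). At an unadjusted p with the fold limits the count was 4 (Apln, Esm1, Pgf and Angpt2), against 3.85% of all genes. Apln had a log2 fold change of 4.74 (SE 0.793, adjusted p = 0.0603), Esm1 of 5.54 (SE 1.14, adjusted p = 0.134), Angpt2 of 1.52 (SE 0.377, adjusted p = 0.308) and Pgf of 2.61 (SE 1.04, adjusted p = 0.788). Every IRR_6w mouse was above every IRR_1d mouse in 3 members, Apln, Esm1 and Angpt2 (5.47% of all genes), and below in 1, Tek (3.84%). With library totals 5 were above, Vegfa and Pgf besides (10.7%). Tek had a log2 fold change of -0.89 (SE 0.315, adjusted p = 0.681). Without IRR_6w replicate 1 edgeR called Apln (5.09, adjusted p = 0.00577) and Esm1 (5.93, adjusted p = 0.0280), and without Control_6w replicate 3 it called Apln (4.74, adjusted p = 0.0117). Summed endothelial markers were at 1285 to 1640 CPM in IRR_1d and 1743 to 2146 CPM in IRR_6w. Macrophage markers summed to 550 to 655 and 961 to 1265 CPM, and lymphatic markers to 226 to 242 and 145 to 212 CPM. Sums of fibroblast, cardiomyocyte and pericyte markers overlapped. The part of these markers in the member differences was not tested.

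Between the control groups, Control_6w vs. Control_1d, no member was called by edgeR (0% of all genes), DESeq2 (0.168%) or limma (0.0187%), 0 passed the unadjusted p with the fold limits (3.75%), and none was free of overlap in the higher (3.39%) or lower (2.53%) direction. Their log2 fold changes ran from -0.82 for Esm1 to 0.55 for Dll4. The change of the irradiation effect from 1 day to 6 weeks was called for 0 members by edgeR (0% of all genes) and 0 by limma (0.00624%). DESeq2 called 2, Apln and Esm1 (0.268%), and 3, Apln, Esm1 and Angpt2, passed the unadjusted p with the fold limits (2.86%). The change was 4.79 for Apln (SE 0.969, unadjusted p = 0.000198, adjusted p = 0.370), 6.36 for Esm1 (SE 1.40, adjusted p = 0.400) and 1.13 for Angpt2 (SE 0.516, adjusted p = 0.990), all on the log2 scale. Without the 3 libraries with RNA of other tissues edgeR called the change of Apln (4.61, adjusted p = 0.0312).

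Many of the members are known as endothelial genes, so their levels were set against 12 endothelial marker genes that are no members (Pecam1, Cdh5, Erg, Emcn, Eng, Vwf, Esam, Cldn5, Egfl7, Robo4, Ramp2 and Sox17), of which 0 were called in either irradiation comparison. Their summed level was 634 to 1849 CPM in Control_6w and 1743 to 2146 CPM in IRR_6w, a difference of 0.46 on the log2 scale (two-sided exact permutation test, n = 4 and 4, p = 0.257, adjusted over 2 tests 0.514, smallest possible p 0.0286). Without Control_6w replicate 3 the difference was 0.10, and with library totals in place of TMM it was 0.70 (exact permutation p = 0.0286, the smallest possible). At 1 day it was 1023 to 1656 and 1285 to 1640 CPM, a difference of 0.17 (exact permutation test, n = 3 and 3, p = 0.700, where the smallest possible p is 0.10).

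Per 100 endothelial marker counts of the same library, which removes the scaling, Apln and Angpt2 were higher at 6 weeks without overlap and Flt1 and Tek lower without overlap. Apln was at 1.2 ± 0.347 in Control_6w and 16.6 ± 10.2 in IRR_6w, and Angpt2 at 0.481 ± 0.165 and 1.33 ± 0.299 (SD, n = 4 each). Flt1 was at 21.7, 19.9, 16.3 and 19.7 in Control_6w and 6.63, 7.64, 8.20 and 7.22 in IRR_6w, and Tek at 9.20, 6.77, 7.94 and 7.40 and at 4.13, 3.50, 3.32 and 3.19. On this scale Control_6w replicate 3 no longer stood apart from its group for either receptor. Esm1 (0.104 to 0.324 and 0.286 to 14.8) and Pgf (0.243 to 0.307 and 0.244 to 2.34) overlapped through IRR_6w replicate 1. Over all tested genes, 0.998% were higher and 8.54% lower without overlap on this scale, so that a lower value was common. At 1 day Aplnr, Esm1 and Kdr were lower without overlap, against 3.07% of all genes, and no member was higher, against 6.29%.

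**Figure D4:**
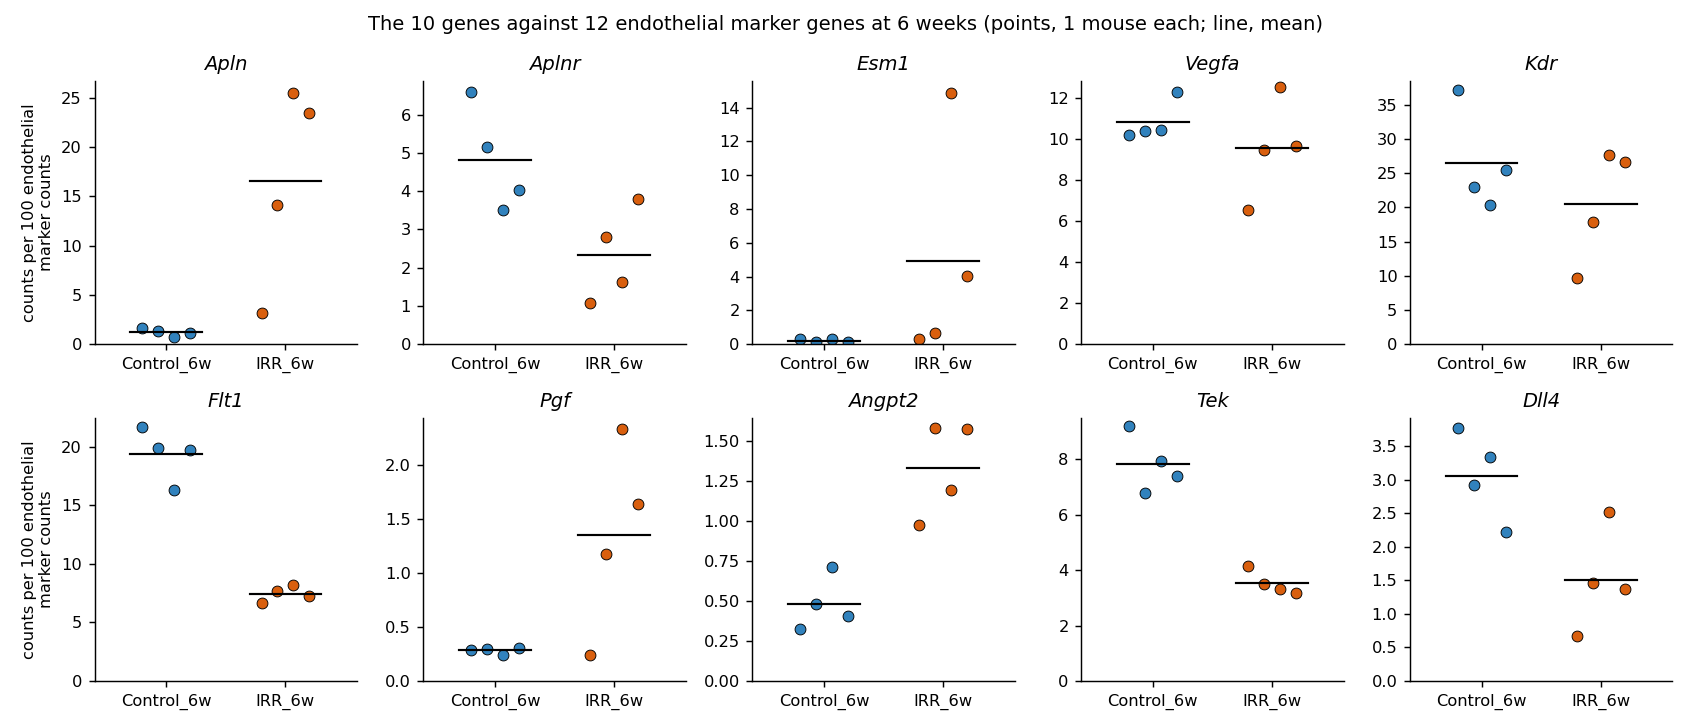
Counts of each member per 100 counts of 12 endothelial marker genes in the same library, at 6 weeks, on linear axes from 0. Each point is 1 mouse and the line is the mean. Flt1 (16.3 to 21.7 in Control_6w, 6.63 to 8.20 in IRR_6w) and Tek separated downward, and Apln and Angpt2 upward.

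Other genes of the same pathways were followed as whole lists, and in none of them was a gene called by edgeR at 6 weeks or 1 day. At 6 weeks an unadjusted p under 0.05 with the fold limits was reached by 3 other tip cell genes (Nid2, Mcam and Adm) and 2 hypoxia-regulated genes (Slc2a1 and Car9), against 5.43% of all genes, DESeq2 called 3 and 1 in these lists, against 2.06% of all genes, and both counts were 0 in the lists of VEGF, angiopoietin and Notch genes. Of 6 other VEGF ligands and receptors, 0 were free of overlap at 6 weeks, with Vegfd at 1.41 (adjusted p = 0.620), Vegfb at -0.80 (adjusted p = 0.676) and the co-receptor Nrp2 at 0.40 (adjusted p = 0.729) on the log2 scale. Of 4 other angiopoietin and Tie genes, which also had no gene free of overlap, Tie1 was at -0.53, the ligand of Tie2 Angpt1 at 0.62 and the phosphatase Ptprb at -0.09. Angpt1 itself was at 33.9 to 55.6 CPM in Control_6w and 28.3 to 166 CPM in IRR_6w. Of 10 other Notch genes, only Rbpj was free of overlap (0.67, SE 0.245, adjusted p = 0.388), ahead of Jag1 (0.51, adjusted p = 0.646) and Notch1 (-0.40, adjusted p = 0.734).

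Of 10 other tip cell genes, 3 were higher in every IRR_6w mouse than in any control, against 4.08% of all genes, which is the share for the counts of higher genes without overlap in the other lists as well. The basement membrane gene Nid2 was at 25.9 ± 13.3 and 93.0 ± 36.2 CPM (log2 fold change 1.85, SE 0.441, adjusted p = 0.113). Mcam was at 54.4 ± 9.90 and 130 ± 23.7 CPM (1.26, SE 0.281, adjusted p = 0.0878), and Adm, which encodes the vessel peptide adrenomedullin, at 7.24 ± 3.17 and 20.8 ± 6.60 CPM (1.53, SE 0.397, adjusted p = 0.139; SD, n = 4 each).  The list median was 0.79 against -0.09 over all genes, and its range ran from -1.07 for Cxcr4 to 2.26 for Kcne3. Of 12 hypoxia-regulated genes the glucose transporter Slc2a1 was free of overlap, at 10.1 to 12.8 and 15.99 to 62.3 CPM (1.63, SE 0.385, adjusted p = 0.1098). Ero1l (0.98, adjusted p = 0.392) and Car9 (2.13, adjusted p = 0.532) came next by p, and the list median was 0.12.

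No macrophage, fibroblast, cardiomyocyte or pericyte marker was called by edgeR at 6 weeks, but some of their levels separated between the groups. With DESeq2, 3 of the 6 macrophage markers and 1 of the 6 fibroblast markers were called, against 2.06% of all genes. No cardiomyocyte or pericyte marker was called by DESeq2. Among the macrophage markers Cd68, Adgre1, Lyz2, Mrc1 and Fcgr1 reached an unadjusted p under 0.05 with the fold limits in edgeR. Among the fibroblast markers Col1a1 and Col3a1 did so, against 5.43% of all genes, and no cardiomyocyte or pericyte marker did. All 6 macrophage markers had a log2 fold change above 0 (smallest adjusted p = 0.0663, Adgre1) and 5 were higher without overlap, with a summed level of 218 to 575 CPM in Control_6w and 961 to 1265 CPM in IRR_6w, and none of the 6 was at 0 in any 6-week library. The 6 fibroblast markers summed to 817 to 1947 and 2031 to 2730 CPM, and 3 (Col1a1, Col3a1 and Lum) were higher without overlap. The other 3 overlapped, with log2 fold changes of 1.19 for Tcf21, 0.16 for Dcn and -0.58 for Pdgfra. The 6 cardiomyocyte markers summed to 4003 to 35760 and 7682 to 24990 CPM, and all 6 had a log2 fold change below 0 with overlap. Of 7 pericyte markers, 1 was higher without overlap. Their part in the member differences was not tested.

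**Figure D5:**
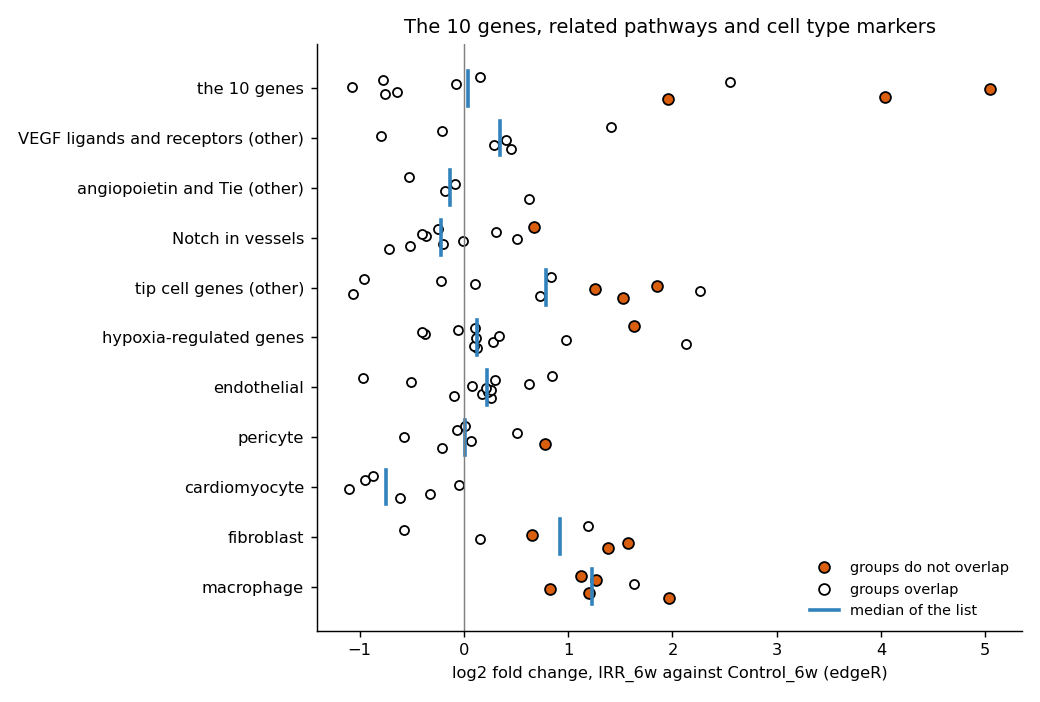
Log2 fold change (IRR_6w against Control_6w, edgeR) of each tested gene in the 10 members, in 5 related pathway lists and in 5 cell type marker lists. Filled points mark genes whose groups did not overlap, and blue bars the list medians. The members spread from -1.07 (Flt1) to 5.05 (Esm1), and the macrophage list has its median at 1.23.

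Among the genes whose log2 levels followed Apln most closely over the 14 libraries were Ift122 (Pearson r 0.963, Spearman rho 0.952), Ccnd1 (r 0.953, rho 0.934), Kcne3 (r 0.922, rho 0.846) and the complement gene C1qb (r 0.921, rho 0.802). Kcne3 is itself on the tip cell list. For Esm1 they were Tnfrsf23 (r 0.962, rho 0.820), Cybb (r 0.931, rho 0.886), Senp5 (r 0.928, rho 0.728), Msn (r 0.928, rho 0.679) and Cd86 (r 0.927, rho 0.833). Cybb and Cd86 are expressed by myeloid cells, whose marker sum was higher in IRR_6w. The values share the group structure and the depth of the libraries and are given as a description. Without the 2 libraries farthest from the median, IRR_6w replicates 3 and 4 for both genes, r was 0.821 to 0.930 for these genes like Apln and 0.576 to 0.893 for those like Esm1.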

How the data were processed

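Hearts of 14 mice were sequenced by the authors. Per the submitters' processing notes, reads were checked with FastQC 0.11.8, trimmed with Trim Galore 0.6.1 and aligned with STAR 2.5.0a to mm10, and the study's methods name HTSeq for counting. The authors deposited whole-number counts per gene that were not normalized, with symbols, coordinates and lengths. The counting mode, strandedness and annotation release were not given in the sources used here. Of 54532 gene IDs, 54409 were found in GENCODE M21, and all 10 members were found there at the deposited coordinates.

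Differential expression was tested with edgeR 4.0.16 in R 4.3.3 (filterByExpr, 16034 genes, TMM, 1 model of the 4 groups over 14 libraries, quasi-likelihood test), with adjusted p under 0.05 by Benjamini-Hochberg and fold limits of 2 and 0.5. The test was also run on simulated data, whose outcome is not given here and on which no statement above rests. DESeq2 1.42.0, limma 3.58.1, other scalings, filters, sample sets and leave-one-out fits were alternatives. Endothelial sums were compared by a two-sided exact permutation test. TMM factors were 0.726 to 1.25, and totals of 13336746 to 16837265 counts set the precision by counting alone. No libraries of a group were duplicates (chi-square per degree of freedom at least 23.9). FPKM used the deposited lengths. Figures were drawn with matplotlib 3.10.9 in Python 3.11.15.

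The members and all gene lists were chosen with earlier results of these data known. All 10 members were named, with values in every library for those called or past an unadjusted p of 0.05 with the fold limits. From each pathway list the called genes or up to 3 with the smallest p at 6 weeks were named, and for Apln and Esm1 the 5 genes with the highest r of log2(CPM + 0.5). For the thymus, atrial, white fat and lung lists, the 3 genes with the highest level were named in libraries that stood apart. Brown fat genes were given as a sum only. Mael, Lyve1, Reln, Mmrn1, Cd68, Fcgr1, Actc1, Ryr2, Sox17, Higd1b, Cxcr4, Kcne3, Adgre1, Col1a1, Col3a1, Lum, Tcf21, Dcn, Pdgfra and Myl2 were named after their values were seen. So were Lyz2, Mrc1, Csf1r, Tnnt2, Tnni3, Cspg4, Pdgfrb and Notch3, and the values given for Vwf and Eng. One of the genes most like Apln is not reported here.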

Additional observations from a re-analysis of the deposited data

Results flagged for a closer look

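In groups of 4 mice, 22 sets of values (10 members and the summed endothelial markers in Control_6w and IRR_6w) were examined for a mouse far from the others, and 2 were found, where chance gives about 1 in 20. Esm1 in Control_6w replicate 1 was at 4.49 CPM, with the nearest library at 2.09 CPM. Flt1 in Control_6w replicate 3 was at 103 CPM, with the nearest library at 345 CPM, and the same library held thymus genes at 4944 CPM and the lowest endothelial sum.

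With TMM scaling Esm1 was lower in every irradiated mouse at 1 day and higher in every irradiated mouse at 6 weeks. With library totals the groups overlapped at 1 day (2.05 CPM in Control_1d replicate 2 and 2.09 CPM in IRR_1d replicate 2). The change of its irradiation effect was 6.36 on the log2 scale (adjusted p = 0.400 by edgeR and 0.000239 by DESeq2).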

How the results depend on the processing

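Of 669 alternative log2 fold changes of members, 602 kept their direction and side of the threshold, 38 kept only the direction and lost the call, 20 gained a call and 9 changed sign. Most of the 602 were never called, so they say little about how firm a call was. All 38 lost calls were those of the 3 called members in IRR_6w vs. Control_6w. There Apln kept its call in 15 alternatives and lost it in 9, Esm1 kept it in 9 and lost it in 15, and Angpt2 kept it in 10 and lost it in 14. For IRR_6w vs. Control_6w, where 3 members and 41 of 16034 genes were called, the member count was 0 with edgeR on the 2 groups alone (13 of 14610 genes), 0 with the replicate number as a block (15 of 16034), 5 without the 3 libraries with RNA of other tissues (180 of 15933) and 0 without the 3 libraries with most low genes at 0 counts (chosen after seeing the data; 0 of 16535). Leaving out 1 library gave 0 to 3 members and 0 to 98 genes. No gene at all was called in the 4 fits that lacked Control_6w replicate 1, Control_6w replicate 2, IRR_6w replicate 3 and IRR_6w replicate 4 in turn, nor without the 3 libraries with most low genes at 0 counts, so the 0 there says nothing about the members in particular. For IRR_6w vs. IRR_1d, with 0 called, it was 3 with DESeq2 (146 genes), 1 with limma (25), 1 with library totals (5), 2 with no filter on low counts (26 of 29699), 2 without the libraries with RNA of other tissues (105) and 0 to 2 on leaving out 1 library (3 to 36). For the change of effect, with 0 called, it was 2 with DESeq2 (43 genes), 2 with no filter (9) and 1 without the libraries with RNA of other tissues (29). At 1 day and between the controls it was 0 throughout. The causes were not tested. The endothelial sum differed by 0.70 at 6 weeks with library totals (exact permutation p = 0.0286) and by -0.0117 at 1 day without the libraries with most low genes at 0 counts, and leaving out 1 library gave -0.0117 to 0.335 at 1 day. Kdr at 6 weeks changed sign to 0.0179 with limma, 0.22 with library totals and 0.0139 with the block, and ran from -0.37 to 0.16 on leaving out 1 library. Pgf at 1 day was -0.21 without the libraries with most low genes at 0 counts and -0.21 to 0.99 on leaving out 1 library, which gave -1.13 to 0.0139 for Apln at 1 day and -0.10 to 0.34 for Vegfa at 6 weeks. Beside the counts of members without overlap, which the report gives for library totals (chosen after seeing the data), library totals shifted the median of all genes by 0.233 at 6 weeks and 0.318 between the irradiated groups. Same-numbered samples did not deviate together (correlations of -0.387 to 0.461, and 2 of 8 libraries at 6 weeks correlated best with their own number), so the replicate numbers were taken as names only. With the block the adjusted p of Apln was 0.106.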
